A study of Mus musculus with 12 samples.

Results

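Gata6+Itga6+ cells, basal keratinocytes of mouse back skin in which Gata6 was active, were compared with CD34+Itga6+ cells, the stem cells of the hair follicle bulge. The comparison uses 6 of the 12 samples of the series, 3 of each population, chosen by their labels. The cells came from the back-skin epidermis of female C57BL6/CBA mice in telogen, when hair follicles rest, and every mouse carried a Gata6-mtomato reporter, so that red fluorescence marked cells with an active Gata6 gene. Cells were separated by flow cytometry. Gata6+Itga6+ cells had the reporter and surface integrin alpha 6, and CD34+Itga6+ cells had CD34 and integrin alpha 6 but no reporter signal. The other 6 samples, of Gata6+ cells without Itga6 and of the remaining Itga6+ cells, entered the fit only to estimate the spread between replicates. The mice were matched for age, which is not given in the sources used here, nor is whether a sample pools several animals. Total RNA was amplified and read on Affymetrix exon arrays. The labels call the 3 samples of a population biological replicates. A p-value sets the difference of means against the spread between such samples within populations, pooled over all 12.

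The bulge is the lowest permanent segment of the hair follicle and holds slow-cycling stem cells, which stay quiet in telogen and rebuild the follicle when the next cycle begins. Quiet bulge cells are known for BMP and FGF18 signalling, which hold them at rest, for secreted Wnt inhibitors and for a rich surrounding matrix. Gata6 is a zinc-finger transcription factor of the upper follicle, which includes the junctional zone and the duct of the sebaceous gland. Cells there divide, move upwards and line the canal through which sebum leaves the follicle.

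Levels are given as log2(intensity + 1), with a gene's level the median of its exon probe sets, and are listed for replicates 1, 2 and 3 in that order. A log2 change is the Gata6+Itga6+ mean minus the CD34+Itga6+ mean with the standard error (SE) of the limma fit. Genes were called higher or lower in Gata6+Itga6+ cells at a limma adjusted p under 0.05 over all 17853 genes. By that rule, 429 genes (2.4%) were higher and 390 (2.18%) lower, 4.59% in all, and the median log2 change of all genes was 0.02. At such shares, that none of a small group of genes was called says little about that group. Without CD34+Itga6+ replicate 1, 251 were higher. The ranges of the 3 and 3 arrays were apart for all 819 called genes, against 19.5% of all genes, so for every called gene below each array of the higher population lay above each array of the lower. The calls rest on these same arrays, so this is no separate support for them. A level of 2.43, which 95% of 1141 odorant and pheromone receptor genes did not exceed, was taken as that of a silent gene, and 9093 genes lay under it in both populations. Where the lower mean was under it, the fold is against this level and is written as at least. Arrays of the same population correlated across genes at 0.936 to 0.957 and arrays of the 2 populations at 0.872 to 0.900. Their upper quartiles of intensity, not log2, were 15.7 to 16.6 for Gata6+Itga6+ and 13.8 to 17.6 for CD34+Itga6+ cells. Of 303 called genes that are members of the lists below or among the largest changes, 178 kept the call without each of the 12 arrays in turn and 147 kept it when the brightest probe set stood for the gene. Where a gene given below lost it, or a count of list members moved by over 1.5 times without 1 array, that is said in the same paragraph. The array names hold a letter, of unstated meaning, that 1 array of each population shares. Arrays of the 2 populations with the same letter deviated from their population means with correlations of 0.11, 0.09 and 0.09, against -0.07 to -0.02 for the other pairs. With the letter as a block, 38 of the 303 genes lost the call.

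The genes used for the sort check the labels and are no finding. Gata6 stood at 4.79, 4.21 and 4.18 in Gata6+Itga6+ cells and at 2.61, 3.17 and 2.75 in CD34+Itga6+ cells. Cd34 stood at 1.83, 1.94 and 1.55 against 7.94, 7.92 and 7.98. Itga6, on which both populations were selected, stood at 7.14, 7.41 and 7.31 against 6.37, 6.75 and 7.16, with overlapping ranges (limma adjusted p = 0.402). The sort genes Cd34, Itga6 and Gata6 are themselves on the marker lists. Without Cd34 and Itga6, 13 of 21 bulge markers were called lower and none higher in Gata6+Itga6+ cells, with summed intensities of 1437 to 1534 against 3765 to 4237. With the brightest probe set Lgr5, Krt24, Tcf7l2, Fgf18, Dkk3, Tbx1, Postn and Sfrp1 of these lost the call, and the others kept it. Tcf7l2 and Tbx1 also lost it without some single arrays. Of 13 upper follicle markers other than Gata6, 6 were higher and 1 lower, with sums of 1134 to 1545 against 206 to 320. Markers of spinous and granular cells, the layers above the basal layer, also moved with the comparison. Of 10 measured 6 were higher and their sums were 1510 to 1982 against 420 to 696, while Tgm1 and Tgm3 were under the silent level in both. The part of such cells in the results below was not tested, and in sorted bulk samples fewer cells of a type cannot be told from less RNA per cell. Of markers of cells other than keratinocytes, none of 10 endothelial and none of 2 erythrocyte genes was above the silent level in either population. Above it were 1 of 11 Langerhans cell and macrophage markers (H2-Ab1), 1 of 10 T cell markers (Thy1), 5 of 10 fibroblast markers (Col1a1, Col1a2, Thy1, Fbln1 and Mfap5) and 3 of 9 melanocyte markers (Mlana, Sox10 and Mitf). So were 1 of 6 Merkel cell markers (Cck), 4 of 6 fat cell markers (Plin1, Cfd, Retn and Fabp4), 5 of 8 skeletal muscle markers (Acta1, Ckm, Mylpf, Tnnt3 and Tnnc2) and 3 of 5 nerve and Schwann cell markers (Sox10, Ngfr and Mbp). Under it in both populations were Cd207 and Ptprc, Cd3e, Col3a1, Dcn, Lum and Pdgfra, Dct, Pmel, Tyr and Tyrp1, and Adipoq. Those called were all lower: Col1a2 and Fbln1 (fibroblast sums of 27.5 to 30.5 against 41.3 to 62.4), Mitf (melanocyte sums of 35.4 to 40.2 against 77.3 to 83.1) and Cck (Merkel cell sums of 14.1 to 15.7 against 34.5 to 107.1). Sums were 21.8 to 22.6 against 19.0 to 65.9 for fat cells, 27.6 to 39.9 against 26.4 to 34.5 for muscle and 20.2 to 25.0 against 16.8 to 18.8 for nerve. Col1a2 lost the call without Gata6+Itga6+ replicate 3 (limma adjusted p up to 0.053), and Col1a2 (-0.22) and Mitf (-1.77) were not called with the brightest probe set.

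Promoter sequences are shown for the genes with the largest change in each direction, because a population sorted on a GATA factor raises the question of which of its genes carry GATA letters near their start. Defb6, a beta-defensin, and Aadac, an arylacetamide deacetylase, were the highest in Gata6+Itga6+ cells relative to bulge cells, and Krt24, a keratin, and Cd34 the lowest. The bulge cells were sorted on Cd34, so its place here is no finding. Krt24 was not called with its brightest probe set (log2 change -0.40). The windows are RefSeq sequences of assembly GRCm38.p6, a later build than that of the arrays, from 250 bases before to 30 after the annotated start, 5′ to 3′ on the gene's strand. Capitals mark a GATA motif, which is AGATAA or the variants TGATAA, likewise AGATAG, or finally TGATAG, on either strand.
Defb6 (chr8:19225228-19225507, + strand): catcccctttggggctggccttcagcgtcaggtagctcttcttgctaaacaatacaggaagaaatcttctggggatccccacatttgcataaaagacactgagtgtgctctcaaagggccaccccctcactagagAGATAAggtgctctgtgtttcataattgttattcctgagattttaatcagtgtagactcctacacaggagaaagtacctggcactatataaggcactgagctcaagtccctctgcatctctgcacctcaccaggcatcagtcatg
Aadac (chr3:60031538-60031817, + strand): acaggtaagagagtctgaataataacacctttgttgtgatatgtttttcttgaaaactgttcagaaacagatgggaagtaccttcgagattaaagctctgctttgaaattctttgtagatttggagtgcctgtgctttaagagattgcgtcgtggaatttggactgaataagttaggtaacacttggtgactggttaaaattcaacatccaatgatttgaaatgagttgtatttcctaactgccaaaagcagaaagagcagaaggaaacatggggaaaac
Krt24 (chr11:99285233-99285512, - strand): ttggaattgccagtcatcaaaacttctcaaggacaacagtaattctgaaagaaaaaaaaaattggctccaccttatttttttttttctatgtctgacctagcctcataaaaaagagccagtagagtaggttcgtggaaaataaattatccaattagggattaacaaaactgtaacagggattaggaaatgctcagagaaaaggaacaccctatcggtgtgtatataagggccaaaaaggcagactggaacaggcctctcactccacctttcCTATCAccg
Cd34 (chr1:194938571-194938850, + strand): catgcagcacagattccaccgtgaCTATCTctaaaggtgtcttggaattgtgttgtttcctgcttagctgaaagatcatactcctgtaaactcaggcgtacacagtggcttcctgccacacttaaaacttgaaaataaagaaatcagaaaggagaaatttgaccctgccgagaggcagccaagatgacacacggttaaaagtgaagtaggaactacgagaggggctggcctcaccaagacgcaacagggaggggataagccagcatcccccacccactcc
The Defb6, Krt24 and Cd34 windows each held 1 match and that of Aadac none. Over 300-base windows, from 250 before to 50 after the start, a match was present in 92 of 328 genes called higher (28%), in 63 of 295 called lower (21.4%) and in 3973 of all 14364 genes with a promoter sequence (27.7%). A match describes letters in the window, not a bound site.

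**Figure D1:**
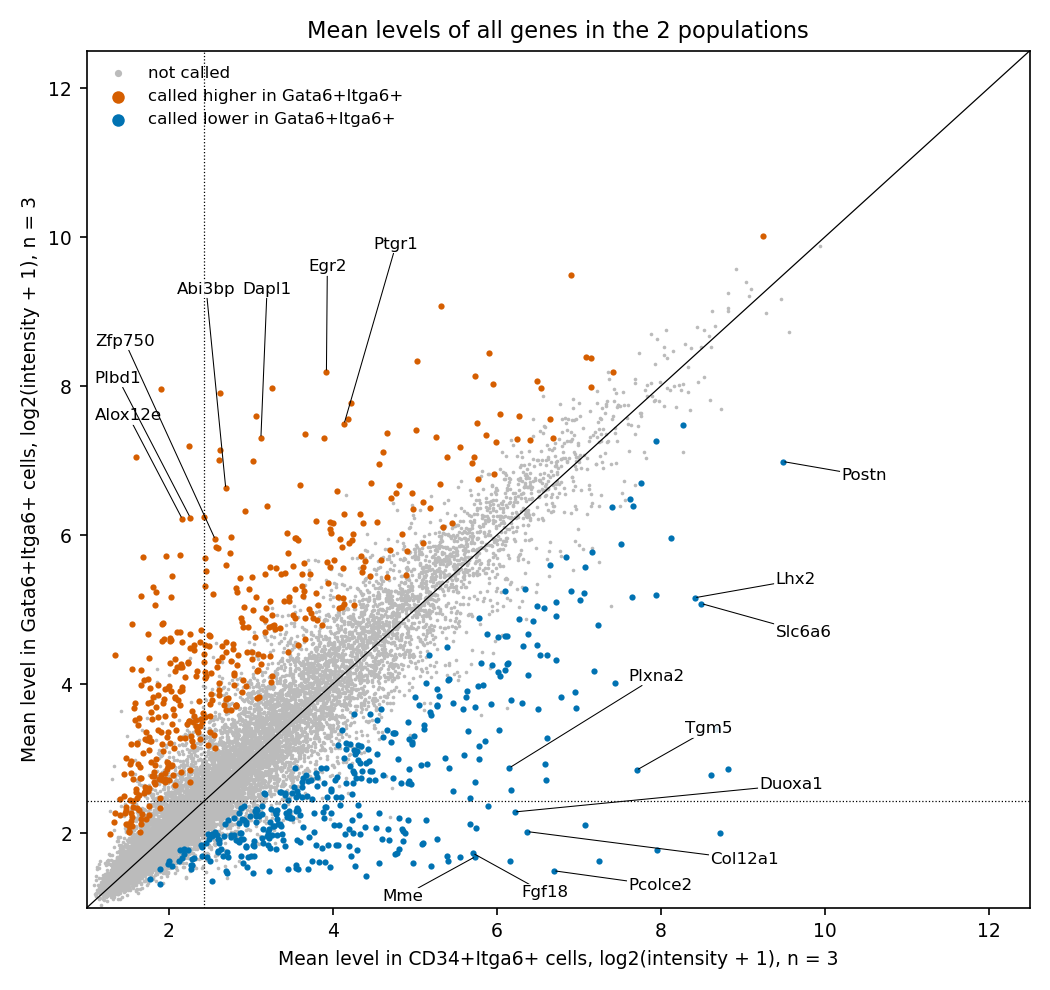
Mean level of each of 17853 genes in CD34+Itga6+ cells (x axis) and in Gata6+Itga6+ cells (y axis), both as log2(intensity + 1) over 3 arrays, with the line of equal levels and, dotted, the silent level of 2.43. Orange points are the 429 genes called higher and blue points the 390 called lower in Gata6+Itga6+ cells, and grey points were not called.

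Beyond the established markers, the widest gaps included genes of little described role in skin. Dapl1, named for its likeness to a death-associated protein and known from differentiating epithelia, stood at 7.60, 7.19 and 7.13 in Gata6+Itga6+ cells and at 3.40, 3.18 and 2.80 in bulge cells. All Gata6+Itga6+ arrays were about 4 units higher (log2 change 4.18, SE 0.19, limma adjusted p = 7.86e-07). Plbd1, a phospholipase B domain protein, stood at 6.01, 6.33 and 6.37 against 2.42, 2.26 and 2.11. It was therefore above the silent level only in Gata6+Itga6+ cells, at least 14.0-fold higher (limma adjusted p = 1.13e-05). The bulge cells were in turn high in Pcolce2, which enhances procollagen processing, at 6.23, 6.44 and 7.42 against 1.53, 1.48 and 1.49. Pdzrn4, a PDZ and RING finger protein, stood at 6.18, 5.63 and 6.66 against 1.69, 1.66 and 1.54. Both were under the silent level on every Gata6+Itga6+ array, and the bulge arrays were at least 19.3-fold and at least 13.3-fold higher (log2 change -5.20, SE 0.24, limma adjusted p = 7.86e-07 for the former).

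The Wnt pathway drives follicle growth, and its secreted and membrane inhibitors differed in both directions between the populations. Of 72 measured Wnt genes 4 were called higher and 7 lower, with a median log2 change of -0.03. None of 18 ligands was called, and all 4 genes called higher were inhibitors. Apcdd1, a membrane-bound inhibitor that binds Wnt proteins, stood at 5.34, 4.99 and 5.30 against 2.56, 2.82 and 2.26, 6.34-fold above the bulge (log2 change 2.67, SE 0.42, limma adjusted p = 0.00476). Sostdc1, a secreted inhibitor of both Wnt and BMP signals, stood at 6.31, 6.14 and 7.06 against 4.61, 4.70 and 4.81 (log2 change 1.79, SE 0.35, limma adjusted p = 0.0146). Axin2, a feedback inhibitor that canonical Wnt signals switch on, stood at 4.82, 4.77 and 5.19 against 3.68, 3.45 and 3.43, a gap of 2.66-fold (limma adjusted p = 0.00476). The secreted Dickkopf relative Dkk3 went the other way, at 1.76, 1.75 and 1.56 against 3.44, 4.55 and 4.67, so all Gata6+Itga6+ arrays lay under the silent level (log2 change -2.53, SE 0.26, limma adjusted p = 0.000286). Tcf7l2, a transcription factor that pairs with beta-catenin, stood at 5.01, 4.98 and 5.17 against 6.18, 6.50 and 6.80, 2.72-fold lower. The receptors Fzd2 and Fzd3 were also called lower (log2 changes -1.39 and -1.72), as was Lgr5, the third of 18 receptors called (log2 change -3.68). The largest called change of the list was that of the secreted inhibitor Sfrp1, also lower (log2 change -5.28). With the brightest probe set neither Sfrp1 (-2.09) nor Lgr5 (-0.10) was called. Sostdc1 lost the call without Gata6+Itga6+ replicate 3 or CD34+Itga6+ replicate 1 (limma adjusted p up to 0.056), Tcf7l2 without 5 of the 12 arrays in turn (limma adjusted p up to 0.0719, reached without CD34+Itga6+ replicate 3), Fzd2 without 4 of the 12 arrays in turn (limma adjusted p up to 0.0716, reached without Gata6+Itga6+ replicate 3) and Fzd3 without 10 of the 12 arrays in turn (limma adjusted p up to 0.159, reached without Gata6+Itga6+ replicate 2). The changes of Sostdc1 (0.92), Axin2 (1.38), Dkk3 (-0.64), Tcf7l2 (-0.81), Fzd2 (0.036, a change of sign) and Fzd3 (-1.34) were not called with the brightest probe set. For the Wnt list, the lower count of 7 became 3 to 4 without Gata6+Itga6+ replicate 2 or 3 or CD34+Itga6+ replicate 2 or 3. Fzd3 was not called with the array-name letter as a block (limma adjusted p = 0.0755).

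BMP signals hold bulge cells at rest, and their target genes Id1, Id2 and Id3 were called lower in Gata6+Itga6+ cells. Of 58 measured genes of the BMP and TGF-beta pathways 3 were called higher and 11 lower, with a median log2 change of -0.17. Id2 and Id3 encode inhibitors of basic helix-loop-helix factors that BMP receptors switch on. Id2 stood at 3.65, 2.99 and 2.34 against 5.31, 5.74 and 6.32, 6.95-fold lower (log2 change -2.80, SE 0.45, limma adjusted p = 0.00518). Id3 stood at 2.54, 2.18 and 1.89 against 4.13, 4.51 and 5.80, and its 2 lowest arrays fell under the silent level (log2 change -2.61, SE 0.35, limma adjusted p = 0.00178). Id1 was also lower (log2 change -1.32). Of 16 genes listed as inhibitors of the pathway 5 were lower and none higher. Grem1, which binds BMPs outside the cell, stood at 3.39, 3.67 and 4.29 against 5.81, 5.69 and 7.01 (log2 change -2.38, SE 0.33, limma adjusted p = 0.00218), and Nog, another such antagonist, at 1.89, 2.40 and 1.88 against 3.12, 3.25 and 3.07. Among proteins that store TGF-beta family ligands in the matrix, Ltbp2 was lowest relative to the bulge, at 2.23, 2.34 and 2.15 against 4.23, 4.62 and 4.13 (log2 change -2.08, SE 0.14, limma adjusted p = 1.18e-05). The ligand Bmp7 was 3.23-fold higher in Gata6+Itga6+ cells, at 5.77, 4.28 and 5.45 against 3.10, 3.67 and 3.65. The ligand Tgfb2 and the co-receptor Tgfbr3 were also called higher (log2 changes 1.19 and 1.31). Id1 lost the call without 10 of the 12 arrays in turn (limma adjusted p up to 0.132, reached without Gata6+Itga6+ replicate 3), Bmp7 without Gata6+Itga6+ replicate 1 or 3 or CD34+Itga6+ replicate 1 (limma adjusted p up to 0.0758), Tgfb2 without 4 of the 12 arrays in turn (limma adjusted p up to 0.0888, reached without Gata6+Itga6+ replicate 3) and Tgfbr3 without 9 of the 12 arrays in turn (limma adjusted p up to 0.118, reached without CD34+Itga6+ replicate 1). With the brightest probe set the changes of Id1 (-1.33), Nog (-0.082), Ltbp2 (0.12), Tgfb2 (-0.10) and Tgfbr3 (0.65) were not called, with Ltbp2 and Tgfb2 changing sign. For the BMP and TGF-beta list, the higher count of 3 became 0 to 1 without Gata6+Itga6+ replicate 1 or 3 or CD34+Itga6+ replicate 1 or 2. Id1 was not called with the array-name letter as a block (limma adjusted p = 0.06).

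Hedgehog signals act on follicle stem cells through the Gli factors, and 4 of 16 measured genes of this pathway were called lower and none higher, with a median log2 change of -0.40. Gli2, the main activator of Hedgehog targets, stood at 2.26, 2.45 and 2.09 in Gata6+Itga6+ and at 4.18, 4.62 and 4.90 in bulge cells. Only 1 of its Gata6+Itga6+ arrays passed the silent level, and the bulge was at least 4.40-fold higher (log2 change -2.30, SE 0.20, limma adjusted p = 8.64e-05). Gli1, a target gene used as a readout of the pathway, stood at 2.15, 2.14 and 2.30 against 2.83, 3.59 and 3.54 (log2 change -1.12, SE 0.19, limma adjusted p = 0.00651). The co-receptor Boc was 2.88-fold lower, at 3.62, 4.73 and 4.49 against 5.95, 5.59 and 5.88. In the Notch pathway, which guides the choice between basal and suprabasal fates, 2 of 33 measured genes were called higher and 1 lower. The share lower was near the 2.18% of all genes. The lower gene was the ligand Jag1, at 3.28, 4.24 and 4.84 against 6.44, 6.19 and 6.54 (log2 change -2.27, SE 0.40, limma adjusted p = 0.00905), and none of the 4 receptors or 7 targets was called. Adam10, a protease that releases Notch from the membrane, and the ligand Dll1 were higher (log2 changes 1.43 and 0.57). Boc lost the call without CD34+Itga6+ replicate 1 or 3 (limma adjusted p up to 0.061) and Adam10 without 10 of the 12 arrays in turn (limma adjusted p up to 0.168, reached without Gata6+Itga6+ replicate 3). With the brightest probe set Gli2 (-0.32), Gli1 (0.38), Boc (-0.44), Adam10 (-0.057) and Dll1 (0.82) were not called, with Gli1 and Adam10 changing sign. For the Hedgehog list, the lower count of 4 became 2 without CD34+Itga6+ replicate 1 or 3. For the Notch list, the higher count of 2 became 1 without Gata6+Itga6+ replicate 3, CD34+Itga6+ replicate 1, 2 or 3 or Remaining Itga6+ replicate 2 and the lower count of 1 became 2 without CD34+Itga6+ replicate 2.

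FGF signals keep follicle stem cells at rest or start growth, depending on the ligand. Of 35 measured FGF genes 1 was called higher, a share near the 2.4% of all genes, and 4 lower. Of 20 EGF receptor genes 2 were higher, Erbb3 and the inhibitor Lrig1. Fgf18, a ligand that keeps bulge cells in telogen, stood at 5.52, 5.94 and 5.67 in bulge cells and was under the silent level on all Gata6+Itga6+ arrays, at 1.88, 1.87 and 1.45 (log2 change -3.98, SE 0.57, limma adjusted p = 0.00251). Fgfr1 stood at 3.99, 4.20 and 4.63 against 5.57, 6.39 and 6.41, 3.59-fold lower (log2 change -1.85, SE 0.24, limma adjusted p = 0.00137). Fgfbp1, a secreted carrier that frees FGFs from the matrix, went the opposite way, at 7.39, 7.31 and 7.39 against 4.22, 5.21 and 4.56. The Gata6+Itga6+ arrays differed by less than 0.1 among themselves and were 6.52-fold above the bulge (log2 change 2.70, SE 0.30, limma adjusted p = 0.000533). Erbb3, a receptor that signals in company with other members of the EGF receptor family, stood at 5.04, 4.80 and 4.84 against 2.89, 2.16 and 3.58 (log2 change 2.01, SE 0.38, limma adjusted p = 0.0133). Fgfr3 was lower (log2 change -0.87). None of 10 EGF-type ligands was called. Erbb3 lost the call without Gata6+Itga6+ replicate 1 (limma adjusted p up to 0.0514) and Fgfr3 without 9 of the 12 arrays in turn (limma adjusted p up to 0.154, reached without Gata6+Itga6+ replicate 3). With the brightest probe set Fgf18 (-0.20) and Fgfr1 (-1.76) were not called; none of the 5 Fgf18 probe sets was higher in Gata6+Itga6+ cells. For the FGF list, the higher count of 1 became 2 without Gata6+Itga6- replicate 1 or 2 and the lower count of 4 became 2 without Gata6+Itga6+ replicate 2 or 3. For the EGF receptor list, the higher count of 2 became 1 without Gata6+Itga6+ replicate 1. Fgfr3 was not called with the array-name letter as a block (limma adjusted p = 0.0622).

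Among insulin-like, PDGF and other growth factors every called gene was lower in Gata6+Itga6+ cells, 11 of 42 measured. The insulin-like growth factor binding proteins, which carry or withhold IGF ligands, made up 4 of the 11 and had 6 measured members with a median log2 change of -1.72. Igfbp3 stood at 3.36, 3.70 and 2.47 against 5.44, 6.16 and 5.75 (log2 change -2.61, SE 0.39, limma adjusted p = 0.00332). Igfbp5 stood at 1.58, 1.68 and 1.58, under the silent level, against 3.57, 3.23 and 4.68 (log2 change -2.21, SE 0.29, limma adjusted p = 0.00161). Igfbp7 stood at 4.08, 2.18 and 2.47 against 5.01, 4.94 and 5.26, with Gata6+Itga6+ replicate 1 closest to the bulge arrays (log2 change -2.16). Ccn2 and Ccn1, matrix-associated signals known as targets of the YAP co-activator, were both lower. Ccn2 stood at 4.31, 4.97 and 5.09 against 7.38, 7.26 and 7.08 (log2 change -2.45, SE 0.23, limma adjusted p = 0.000132) and Ccn1 was lower (log2 change -1.38). Angptl2, a secreted angiopoietin-like factor, stood at 4.53, 3.71 and 4.32 against 5.66, 6.12 and 6.53, 3.78-fold lower. The receptor tyrosine kinases Axl and Mertk, which bind Gas6, were lower (log2 changes -1.40 and -1.39). Ccn1 lost the call without 4 of the 12 arrays in turn (limma adjusted p up to 0.0707, reached without CD34+Itga6+ replicate 3) and Axl without Gata6+Itga6+ replicate 1 or CD34+Itga6+ replicate 1 or 2 (limma adjusted p up to 0.0771). Igfbp7 (-0.34), Ccn1 (-1.53), Angptl2 (-1.97), Axl (-0.29) and Mertk (-1.76) were not called with the brightest probe set. For the growth factor list, the lower count of 11 became 7 without Gata6+Itga6+ replicate 1.

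Guidance genes, named for axon steering but active in many epithelia, gave 3 higher and 3 lower of 58 measured. Plxna2, a plexin receptor for semaphorins, stood at 2.92, 2.90 and 2.82 in Gata6+Itga6+ and at 6.16, 6.18 and 6.12 in bulge cells, and the 3 arrays of each population lay within 0.1 of each other (log2 change -3.28, SE 0.19, limma adjusted p = 4.1e-06). Sema3e, a secreted semaphorin, stood at 3.74, 3.93 and 4.01 against 6.62, 6.93 and 7.34, 8.38-fold lower (log2 change -3.07, SE 0.18, limma adjusted p = 5.24e-06). Plxnb1, the receptor of another semaphorin class, was lower (log2 change -1.01). A different semaphorin, Sema3d, was higher, at 3.43, 4.39 and 3.27 against 1.68, 2.13 and 1.74, and under the silent level in the bulge. Robo1, a receptor for Slit proteins, was higher (log2 change 1.18). Sema3d lost the call without Gata6+Itga6+ replicate 2 or CD34+Itga6+ replicate 1 or 3 (limma adjusted p up to 0.0617) and Robo1 without 5 of the 12 arrays in turn (limma adjusted p up to 0.0949, reached without Gata6+Itga6+ replicate 2). Robo1 (2.26) was not called with the brightest probe set. For the guidance list, the higher count of 3 became 0 to 1 without Gata6+Itga6+ replicate 2 or CD34+Itga6+ replicate 1, 2 or 3.

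Cytokine genes were called mostly in the upward direction, 12 higher and 3 lower of 101 measured, with a median log2 change of 0.14. Il34, which keratinocytes make and which maintains Langerhans cells through the receptor Csf1r, stood at 5.32, 5.26 and 5.15 against 2.78, 2.94 and 2.77, 5.32-fold above the bulge (log2 change 2.41, SE 0.35, limma adjusted p = 0.00267). Il33, an alarm cytokine stored in epithelial nuclei, stood at 4.41, 4.59 and 4.72 and was under the silent level on every bulge array, at 1.88, 1.65 and 2.24 (log2 change 2.65, SE 0.50, limma adjusted p = 0.0131). Il7, a survival factor for lymphocytes, stood at 3.29, 2.88 and 2.62 against 1.67, 1.43 and 1.49. Of 45 receptors 7 were higher and 2 lower. Ifngr1, the binding subunit of the interferon-gamma receptor, stood at 5.02, 5.39 and 5.86 against 2.90, 2.54 and 3.17 (log2 change 2.56, SE 0.34, limma adjusted p = 0.00169). Tnfrsf19, a receptor of the tumour necrosis factor family also called Troy, stood at 4.85, 4.64 and 4.61 against 2.61, 1.81 and 1.88 (log2 change 2.60, SE 0.36, limma adjusted p = 0.00217). Il1r1, the interleukin-1 receptor, stood at 5.20, 5.16 and 5.51 against 2.30, 2.04 and 4.11, with CD34+Itga6+ replicate 3 about 2 units above the other bulge arrays (log2 change 2.47). The receptors Il18r1 and Lifr were higher (log2 changes 1.45 and 1.75). The chemokine Cxcl14 was the exception among ligands, at 3.11, 2.64 and 2.84 against 4.85, 4.76 and 5.19, 4.20-fold lower (log2 change -2.07, SE 0.21, limma adjusted p = 0.000269). None of 16 signalling components downstream was called. Of 11 markers of Langerhans cells and macrophages 10 were under the silent level in both populations, Cd207, Ptprc and Csf1r among them, and the sums were 29.7 to 34.5 against 26.6 to 36.6. Il33 lost the call without Gata6+Itga6+ replicate 3 (limma adjusted p up to 0.0521), Il1r1 without 5 of the 12 arrays in turn (limma adjusted p up to 0.0737, reached without CD34+Itga6+ replicate 1) and Lifr without Gata6+Itga6+ replicate 3 (limma adjusted p up to 0.0527). Il34 (1.58), Il33 (0.60), Il7 (1.06), Il1r1 (2.08) and Il18r1 (2.32) were not called with the brightest probe set. For the cytokine list, the higher count of 12 became 7 without Gata6+Itga6+ replicate 3.

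G-protein and calcium signalling gave 4 higher and 5 lower genes of 78 measured. F2rl1, the protease-activated receptor PAR2 that keratinocyte proteases cleave, stood at 5.93, 6.14 and 6.50 against 3.57, 3.96 and 3.88, 5.23-fold above the bulge (log2 change 2.39, SE 0.52, limma adjusted p = 0.0288). Adgrl2, an adhesion receptor of the latrophilin family, stood at 6.39, 6.19 and 6.26 against 4.31, 3.59 and 5.09 (log2 change 1.95, SE 0.33, limma adjusted p = 0.00708). Adcy1, an adenylyl cyclase that calcium and calmodulin switch on, was under the silent level in Gata6+Itga6+ cells, at 1.99, 1.91 and 1.95 against 3.57, 3.63 and 3.93 (log2 change -1.76, SE 0.11, limma adjusted p = 9.69e-06). P2rx7, an ATP-gated cation channel, and Adgrg6, an adhesion receptor that binds collagen IV, were lower (log2 changes -1.23 and -1.65). F2rl1 lost the call without 6 of the 12 arrays in turn (limma adjusted p up to 0.103, reached without Gata6+Itga6+ replicate 3) and Adgrg6 without 8 of the 12 arrays in turn (limma adjusted p up to 0.152, reached without Gata6+Itga6+ replicate 1). Adgrl2 (1.15), Adcy1 (-0.047), P2rx7 (-1.76) and Adgrg6 (-1.39) were not called with the brightest probe set. For the G-protein list, the higher count of 4 became 1 to 2 without Gata6+Itga6+ replicate 2 or 3 or CD34+Itga6+ replicate 1, 2 or 3 and the lower count of 5 became 2 to 3 without each of 9 of the 12 arrays. F2rl1 was not called with the array-name letter as a block (limma adjusted p = 0.0527).

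**Figure D2:**
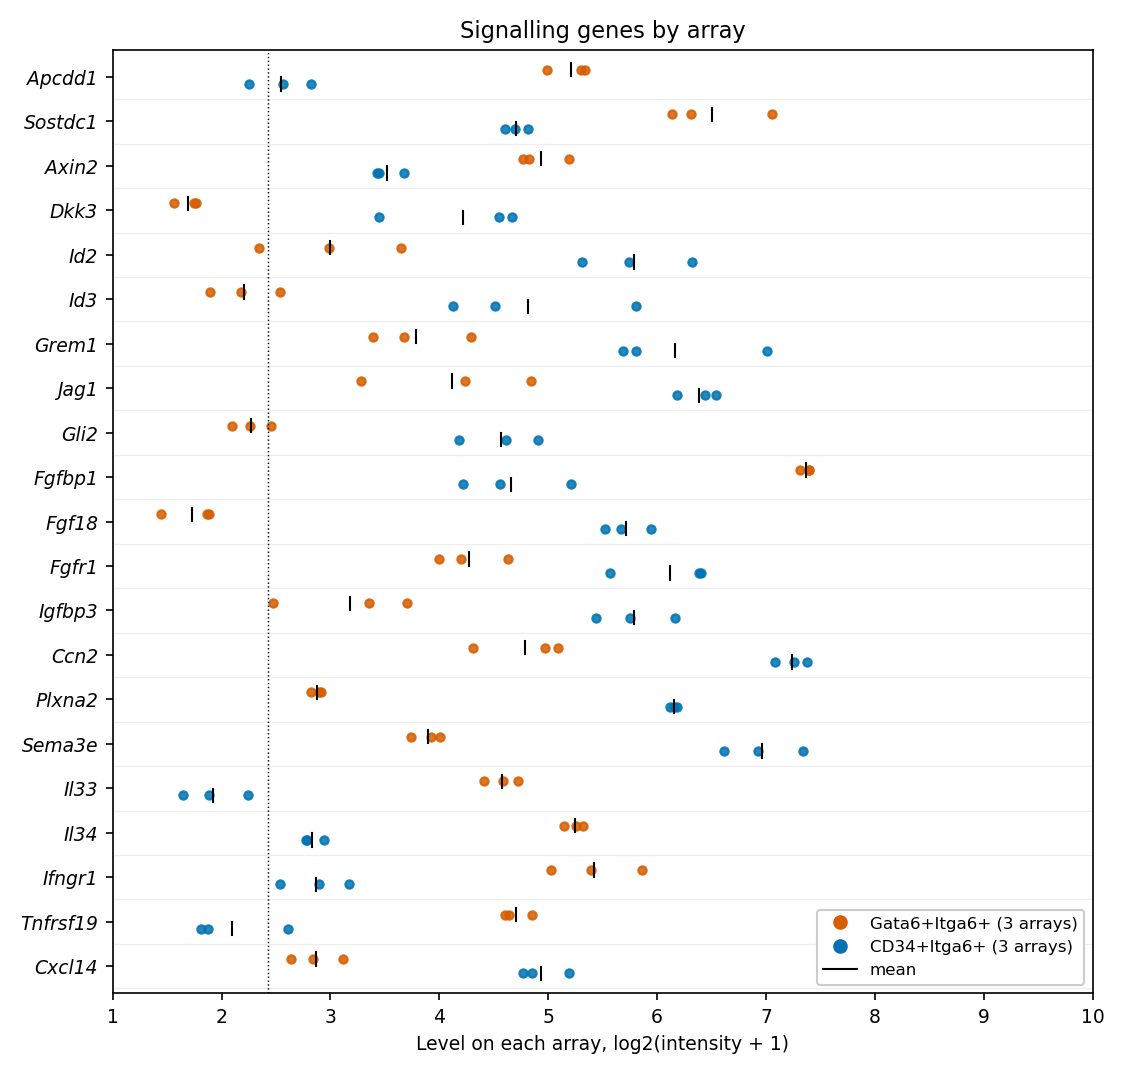
Level of 21 signalling genes on each array, as log2(intensity + 1), with 3 Gata6+Itga6+ arrays (orange), 3 CD34+Itga6+ arrays (blue) and their means (bars); the dotted line is the silent level of 2.43. In each gene shown, all arrays of one population lie above all arrays of the other; Plxna2 has the least spread between replicates, and Id2, Id3 and Jag1 have wide ones.

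Homeobox and T-box factors set position and identity along the follicle, and those called were mostly lower, 5 of 74 against 1 higher, with a median log2 change of -0.14. The share higher did not exceed the 2.4% of all genes. Lhx2, a LIM factor that maintains bulge stem cells, stood at 5.26, 5.08 and 5.14 in Gata6+Itga6+ cells and at 8.24, 8.25 and 8.75 in bulge cells, 9.54-fold lower (log2 change -3.25, SE 0.18, limma adjusted p = 3.01e-06). It stayed well above the silent level in both. Hoxd8, a factor of the Hox clusters, was under the silent level in Gata6+Itga6+ cells, at 1.91, 1.89 and 2.21 against 2.72, 5.25 and 4.77. Its bulge arrays disagreed, with replicate 1 about 2 units below the others, and the log2 change of -2.24 became -3.00 without that array. Cux1, a repressor of the cut class, went the other way, at 4.44, 3.79 and 3.63 against 2.01, 2.12 and 2.36 (log2 change 1.79, SE 0.34, limma adjusted p = 0.0134). The LIM cofactor Lmo4 and the T-box factor Tbx1 were lower (log2 changes -1.35 and -1.36). Hoxd8 lost the call without 7 of the 12 arrays in turn (limma adjusted p up to 0.107, reached without CD34+Itga6+ replicate 3), Cux1 without Gata6+Itga6+ replicate 1 or CD34+Itga6+ replicate 1 (limma adjusted p up to 0.0522), Lmo4 without 4 of the 12 arrays in turn (limma adjusted p up to 0.101, reached without Gata6+Itga6+ replicate 2) and Tbx1 without Gata6+Itga6+ replicate 1 or 3 or CD34+Itga6+ replicate 1 (limma adjusted p up to 0.0879). Tbx1 changed sign with the brightest probe set (0.21). For the homeobox and T-box list, the higher count of 1 became 0 to 2 without Gata6+Itga6+ replicate 1 or 2, CD34+Itga6+ replicate 1 or 3 or Remaining Itga6+ replicate 3 and the lower count of 5 became 2 to 3 without Gata6+Itga6+ replicate 1, 2 or 3 or CD34+Itga6+ replicate 3. Lmo4 was not called with the array-name letter as a block (limma adjusted p = 0.0623).

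Factors of epidermal differentiation split, with 8 higher and 6 lower of 72 measured. Zfp750, a zinc-finger factor that p63 switches on and that drives terminal differentiation, stood at 6.30, 6.12 and 5.42 against 2.33, 2.36 and 3.01, 10.4-fold above the bulge (log2 change 3.38, SE 0.32, limma adjusted p = 0.00014). Grhl1, a grainyhead factor of desmosome genes, stood at 4.18, 5.12 and 4.75 against 2.14, 2.11 and 2.53 (log2 change 2.42, SE 0.30, limma adjusted p = 0.00105). Klf5, a Krüppel-like factor, stood at 6.95, 6.89 and 7.04 against 4.44, 4.55 and 4.71 (log2 change 2.39, SE 0.26, limma adjusted p = 0.000482). Ahr, the receptor that senses dioxin and tryptophan metabolites, stood at 5.30, 5.73 and 5.79 against 2.98, 2.37 and 2.75, and its bulge arrays were close to the silent level (log2 change 2.90, SE 0.24, limma adjusted p = 5.64e-05). Tfap2c was higher (log2 change 1.35), whereas its relative Tfap2b was lower, at 5.86, 6.07 and 5.96 against 8.05, 8.15 and 8.17 (log2 change -2.16, SE 0.18, limma adjusted p = 6.5e-05). The basonuclins, zinc-finger proteins of proliferating basal cells, were both lower. Bnc2 stood at 2.38, 3.68 and 3.10 against 5.43, 5.27 and 6.11 (log2 change -2.55, SE 0.36, limma adjusted p = 0.0022) and Bnc1 was lower (log2 change -1.96). The bZIP factor Maf stood at 2.67, 3.16 and 2.97 against 5.24, 4.65 and 5.58, 4.66-fold lower (log2 change -2.22, SE 0.24, limma adjusted p = 0.000417). The higher factors moved with the markers of spinous and granular cells given above, and the part of such cells was not tested. The call of Tfap2c was lost without Gata6+Itga6+ replicate 3 or CD34+Itga6+ replicate 1 (limma adjusted p up to 0.0767). Grhl1 (0.67), Bnc2 (-2.10), Bnc1 (-0.68) and Maf (-2.14) were not called with the brightest probe set. For the differentiation factor list, the higher count of 8 became 5 without CD34+Itga6+ replicate 1.

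Egr2, also named Krox20, had the largest rise of the transcription factors listed. This zinc-finger factor is known in skin from hair shaft progenitors, and it stood at 8.19, 8.23 and 8.15 in Gata6+Itga6+ cells and at 3.08, 4.73 and 3.96 in bulge cells. The Gata6+Itga6+ arrays lay within 0.1 of each other, 19.2-fold above the bulge (log2 change 4.27, SE 0.43, limma adjusted p = 0.00025). Its relative Egr1, an immediate early gene, was higher (log2 change 1.48) (limma adjusted p = 0.0311). None of 7 AP-1 genes and none of 5 heat shock genes was called, too few genes to read against the 4.59% of all genes called. Cell dissociation is known to raise early genes such as Egr1 as well as AP-1 and heat shock genes, and its part here was not tested. Cited2, which competes for the coactivators of hypoxia factors, stood at 3.97, 3.87 and 4.11 against 5.81, 5.44 and 6.23 (log2 change -1.85, SE 0.23, limma adjusted p = 0.00105). Of 54 measured SOX, FOX, RUNX, NFAT and GATA factors 5 were higher, Gata6 itself included, and 4 lower. Gata3, a factor of epidermal and inner root sheath fates, stood at 7.39, 7.88 and 7.51 against 5.72, 6.70 and 6.41, 2.50-fold higher. Sox7 stood at 3.97, 3.36 and 3.91 against 1.73, 2.07 and 2.00, under the silent level in the bulge. Foxp1, a forkhead factor that keeps bulge cells quiet, was lower, at 4.69, 4.81 and 4.53 against 5.71, 5.75 and 6.18 (log2 change -1.20, SE 0.22, limma adjusted p = 0.0112). None of 29 nuclear receptors was called, and of 12 clock genes Per2 alone, lower (log2 change -1.01). That is 1 of 41 on this list, a share near the 2.18% of all genes. Egr1 lost the call without 6 of the 12 arrays in turn (limma adjusted p up to 0.112, reached without Gata6+Itga6+ replicate 2), Gata3 without Gata6+Itga6+ replicate 2 or 3 or CD34+Itga6+ replicate 1 (limma adjusted p up to 0.0842), Sox7 without 5 of the 12 arrays in turn (limma adjusted p up to 0.097, reached without Gata6+Itga6+ replicate 3) and Per2 without Gata6+Itga6+ replicate 2 (limma adjusted p up to 0.0571). With the brightest probe set Egr1 (0.95), Gata3 (1.06), Foxp1 (-0.39) and Per2 (-1.07) were not called and Cited2 changed sign (0.22). For the SOX to GATA list, the higher count of 5 became 1 to 3 without Gata6+Itga6+ replicate 1, 2 or 3 or CD34+Itga6+ replicate 1, 2 or 3 and the lower count of 4 became 1 to 2 without Gata6+Itga6+ replicate 1 or 3 or CD34+Itga6+ replicate 1. For the immediate early list, the higher count of 2 became 1 without Gata6+Itga6+ replicate 1 or 2 or CD34+Itga6+ replicate 1, 2 or 3 and the lower count of 1 became 2 without Gata6+Itga6+ replicate 2. For the nuclear receptor and clock list, the lower count of 1 became 0 without Gata6+Itga6+ replicate 2. Gata3 (0.0523), Sox7 (0.0507) and Egr1 (0.0596) were not called with the array-name letter as a block (limma adjusted p in brackets).

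**Figure D3:**
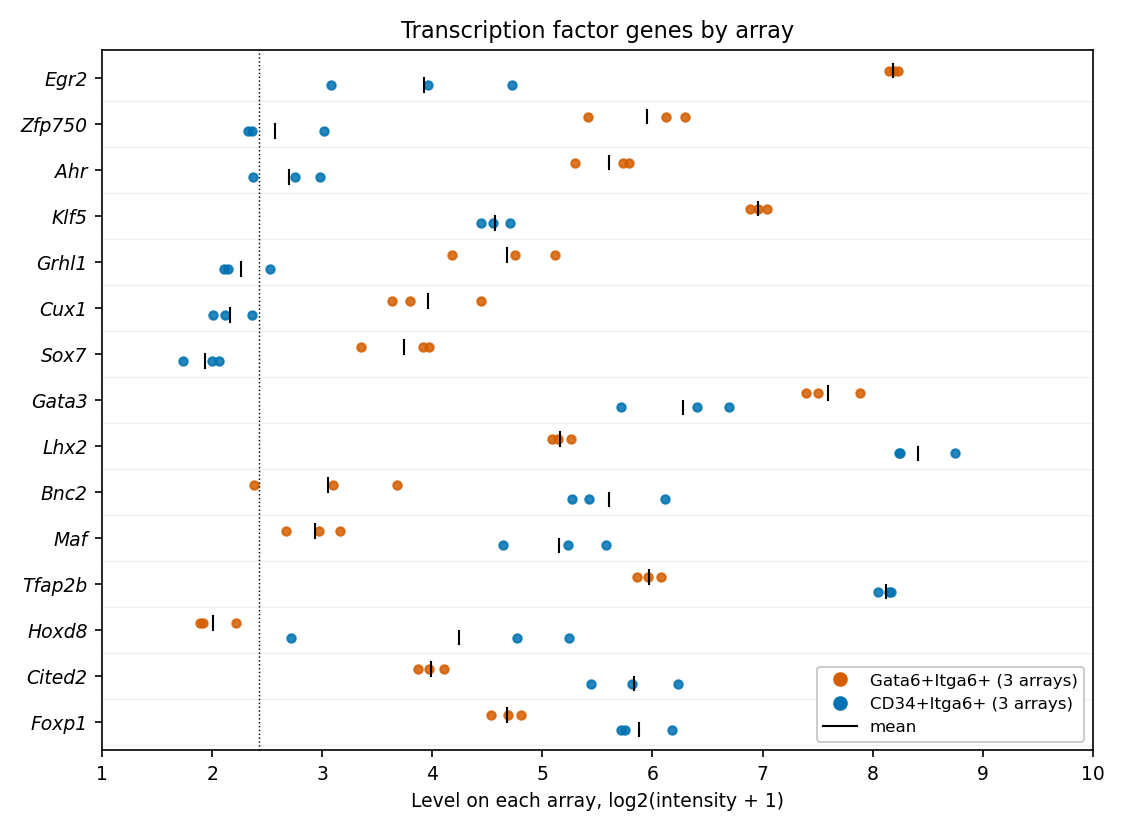
Level of 15 transcription factor genes on each array, as log2(intensity + 1), with 3 Gata6+Itga6+ arrays (orange), 3 CD34+Itga6+ arrays (blue) and their means (bars); the dotted line is the silent level of 2.43. Egr2 shows the widest gap, and CD34+Itga6+ replicate 1 of Hoxd8 lies apart from the other bulge arrays.

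Retinoic acid, made from vitamin A, controls sebaceous and epidermal differentiation, and a pair of its carriers differed in opposite directions. Of 31 measured retinoid genes 4 were called higher and 2 lower. Crabp2, which delivers retinoic acid to its nuclear receptors, stood at 6.93, 6.32 and 5.74 against 2.63, 3.32 and 2.83, 10.6-fold above the bulge (log2 change 3.40, SE 0.36, limma adjusted p = 0.000331). Its relative Crabp1 was under the silent level there, at 1.58, 1.52 and 1.75 against 4.05, 4.17 and 3.49 in the bulge (log2 change -2.29, SE 0.17, limma adjusted p = 2.78e-05). Of 25 enzymes 3 were higher, among them Aldh1a1, which makes retinoic acid, and 1 that breaks it down was lower. Aldh1a1, a retinaldehyde dehydrogenase, stood at 3.15, 4.38 and 4.27 against 1.95, 2.09 and 1.84 (log2 change 1.98, SE 0.32, limma adjusted p = 0.00622). Sdr16c5, a retinol dehydrogenase, stood at 5.29, 3.92 and 4.76 against 2.87, 2.35 and 2.24 (log2 change 2.17, SE 0.38, limma adjusted p = 0.00831). Cyp26b1, which degrades retinoic acid, stood at 1.96, 2.47 and 2.35 against 3.51, 3.28 and 3.14 (log2 change -1.05, SE 0.16, limma adjusted p = 0.00314). Crabp1 changed sign with the brightest probe set (0.33) and Cyp26b1 (-0.90) was not called.

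In prostaglandin synthesis the 2 cyclooxygenases went in opposite directions. Of 38 measured eicosanoid genes 4 were higher and 2 lower. Ptgs1, the constitutive enzyme, stood at 4.20, 4.45 and 4.03 in Gata6+Itga6+ cells and under the silent level in the bulge, at 2.10, 2.36 and 1.97 (log2 change 2.08, SE 0.28, limma adjusted p = 0.00181). Ptgs2, the inducible enzyme, was under the silent level in Gata6+Itga6+ cells, at 2.04, 1.80 and 1.55 against 3.36, 4.88 and 3.38 (log2 change -2.07, SE 0.36, limma adjusted p = 0.00818). Pla2g4a, the phospholipase that frees arachidonic acid for both, was 4.12-fold lower, at 3.38, 4.36 and 3.33 against 5.24, 6.05 and 5.91. Hpgds, which makes prostaglandin D2, stood at 4.35, 5.68 and 3.99 against 1.86, 1.75 and 1.64 (log2 change 2.92, SE 0.50, limma adjusted p = 0.00756). Ptgr1, which inactivates leukotriene B4 and reduces prostaglandins, stood at 7.96, 7.22 and 7.30 against 4.43, 4.02 and 3.96, 10.2-fold higher (log2 change 3.35, SE 0.34, limma adjusted p = 0.000265). Alox12e, the epidermal 12-lipoxygenase, had the widest gap of this list, at 6.10, 6.41 and 6.15 against 2.14, 2.14 and 2.21 (log2 change 4.05, SE 0.25, limma adjusted p = 6.32e-06). Ptgs2 (-1.21) and Pla2g4a (-1.65) were not called with the brightest probe set.

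Fatty acids must be joined to coenzyme A before a cell can burn or store them, and of 11 measured enzymes of that step 4 were higher and none lower. Acsl4, which prefers arachidonic acid, stood at 5.36, 6.32 and 5.85 against 2.69, 2.62 and 2.43, 9.59-fold above the bulge (log2 change 3.26, SE 0.28, limma adjusted p = 7.07e-05). Acsl1 stood at 5.74, 5.87 and 5.49 against 2.71, 2.13 and 2.49 (log2 change 3.26, SE 0.25, limma adjusted p = 3.08e-05). Acsbg1 stood at 4.58, 4.63 and 4.02 against 2.52, 2.28 and 2.50, close to the silent level in the bulge (log2 change 1.97, SE 0.21, limma adjusted p = 0.000371). Acsl5 was higher (log2 change 1.70). Over the whole fatty acid list 8 of 79 were higher and 2 lower, the latter near the 2.18% of all genes, with a median log2 change of 0.07. Of 20 genes of fatty acid synthesis 1 was higher, Scd1, which inserts a double bond into stearic acid (log2 change 1.80), and 1 lower, the elongase Elovl5 (log2 change -1.52). These enzymes are also active in sebocytes. Of 13 sebocyte markers 8, Scd3, Elovl3, Awat2, Mc5r and Pparg among them, were under the silent level in both populations, and 5 were above it, Mgst1, Plin2, Fasn, Dgat2 and Krt7. None of the 13 was called, the sums were 71.0 to 103.9 against 54.6 to 81.7, and the part of sebocytes was not tested. Scd1 lost the call without Gata6+Itga6+ replicate 1 or 3 or CD34+Itga6+ replicate 1 (limma adjusted p up to 0.0862) and Elovl5 without 5 of the 12 arrays in turn (limma adjusted p up to 0.0867, reached without Gata6+Itga6+ replicate 2). Acsl5 (0.67) and Scd1 (2.99) were not called with the brightest probe set. For the fatty acid list, the higher count of 8 became 5 without Gata6+Itga6+ replicate 1 or CD34+Itga6+ replicate 1 and the lower count of 2 became 0 to 1 without each of 11 of the 12 arrays.

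Cholesterol and sphingolipid genes were called in the upward direction alone. Of 31 measured cholesterol genes 5 were higher, with a median log2 change of 0.38, and 4 of the 5 belong to regulation and transport. Cyp27a1, which makes 27-hydroxycholesterol, stood at 4.79, 3.96 and 4.83 against 2.28, 2.45 and 2.22, at least 4.29-fold above the bulge (log2 change 2.21, SE 0.22, limma adjusted p = 0.000252). Npc1, which exports cholesterol from lysosomes, stood at 5.29, 4.79 and 4.94 against 3.47, 3.66 and 4.02 (log2 change 1.29). Insig2, which holds back sterol synthesis, stood at 5.68, 5.48 and 5.59 against 2.97, 3.01 and 4.57, with CD34+Itga6+ replicate 3 well above the other bulge arrays. Of 32 sphingolipid genes 5 were higher. Abca12, the transporter that loads lipids into lamellar granules of the barrier, stood at 4.46, 3.94 and 3.77 against 1.89, 1.60 and 1.60 (log2 change 2.36, SE 0.24, limma adjusted p = 0.000255). Acer1, an alkaline ceramidase, stood at 3.54, 3.36 and 4.32 against 1.80, 1.97 and 1.47 (log2 change 2.00, SE 0.27, limma adjusted p = 0.00174), and Cers6, a ceramide synthase, at 4.32, 5.14 and 6.07 against 2.52, 3.27 and 3.41. Sptlc3 and Sptlc2, subunits of the enzyme that starts sphingolipid synthesis, were higher (log2 changes 1.98 and 1.45). Npc1 lost the call without Gata6+Itga6+ replicate 1 or CD34+Itga6+ replicate 1 (limma adjusted p up to 0.054), Insig2 without 7 of the 12 arrays in turn (limma adjusted p up to 0.115, reached without CD34+Itga6+ replicate 1), Cers6 without CD34+Itga6+ replicate 1 (limma adjusted p up to 0.0508), Sptlc3 without 6 of the 12 arrays in turn (limma adjusted p up to 0.0782, reached without Gata6+Itga6+ replicate 1) and Sptlc2 without 4 of the 12 arrays in turn (limma adjusted p up to 0.0877, reached without Gata6+Itga6+ replicate 1). Cyp27a1 (0.90), Insig2 (1.13), Cers6 (0.51) and Sptlc3 (0.94) were not called with the brightest probe set. For the cholesterol list, the higher count of 5 became 2 to 3 without Gata6+Itga6+ replicate 1, 2 or 3 or CD34+Itga6+ replicate 1 or 2. For the sphingolipid list, the higher count of 5 became 2 to 3 without Gata6+Itga6+ replicate 1 or 2 or CD34+Itga6+ replicate 1.

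Glycolysis and mitochondrial respiration supply the cell with energy. Of 51 measured genes of glycolysis, glycogen and hypoxia 1 was called lower and none higher, a share near the 2.18% of all genes. It was the glycogen phosphorylase Pygl, at 2.43, 2.91 and 2.89 in Gata6+Itga6+ cells against 3.84, 3.79 and 5.40. Of 46 mitochondrial genes 2 were higher, a share near the 2.4% of all genes, and the median log2 change was 0.31. Ucp2, an inner membrane carrier, stood at 5.38, 5.22 and 5.82 against 2.84, 3.61 and 3.68 (log2 change 2.10, SE 0.42, limma adjusted p = 0.0172), and Cs, citrate synthase, was higher (log2 change 1.66). Of 79 genes of amino acid and nucleotide metabolism 2 were higher and 3 lower, a share near that of all genes in each direction. Slc6a6, the taurine transporter, had the widest gap of them, at 4.36, 5.64 and 5.25 against 8.41, 8.12 and 8.96, 10.7-fold lower (log2 change -3.41, SE 0.38, limma adjusted p = 0.000471). Psat1, an enzyme of serine synthesis, was higher (log2 change 1.65), and Nt5e, the surface enzyme CD73 that makes adenosine, lower (log2 change -1.59). Pygl lost the call without 8 of the 12 arrays in turn (limma adjusted p up to 0.145, reached without Gata6+Itga6+ replicate 1), Ucp2 without Gata6+Itga6+ replicate 1 or 3 or CD34+Itga6+ replicate 1 (limma adjusted p up to 0.0728), Cs without 7 of the 12 arrays in turn (limma adjusted p up to 0.121, reached without Gata6+Itga6+ replicate 1), Psat1 without 9 of the 12 arrays in turn (limma adjusted p up to 0.147, reached without CD34+Itga6+ replicate 2) and Nt5e without 10 of the 12 arrays in turn (limma adjusted p up to 0.132, reached without CD34+Itga6+ replicate 3). Pygl (-0.89), Cs (0.69), Psat1 (1.65) and Slc6a6 (-2.57) were not called with the brightest probe set. For the glycolysis list, the lower count of 1 became 0 to 2 without each of 10 of the 12 arrays. For the mitochondrial list, the higher count of 2 became 0 to 1 without each of 8 of the 12 arrays. For the amino acid list, the higher count of 2 became 1 without each of 8 of the 12 arrays and the lower count of 3 became 1 without each of 8 of the 12 arrays. Cs (0.0551), Psat1 (0.0614) and Nt5e (0.0587) were not called with the array-name letter as a block (limma adjusted p in brackets).

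Detoxifying and redox enzymes gave 4 higher and 4 lower of 66 measured. The bulge cells had the higher levels of a hydrogen peroxide system. Duoxa1, the maturation factor of dual oxidase, stood at 1.96, 2.60 and 2.30 in Gata6+Itga6+ and at 6.32, 5.79 and 6.55 in bulge cells (log2 change -3.93, SE 0.23, limma adjusted p = 5.16e-06). Duox1, the oxidase itself, was under the silent level on all Gata6+Itga6+ arrays, at 2.00, 2.00 and 2.00 against 4.12, 4.03 and 4.85 (log2 change -2.34, SE 0.20, limma adjusted p = 7.83e-05). Cbr2, a carbonyl reductase, stood at 4.85, 3.84 and 4.47 against 6.09, 6.84 and 6.92 (log2 change -2.23, SE 0.35, limma adjusted p = 0.00476), although it was listed here as an upper follicle marker. Mt4, a metallothionein of stratified epithelium, stood at 6.13, 4.94 and 4.85 against 1.60, 2.02 and 1.81, under the silent level in the bulge (log2 change 3.50, SE 0.48, limma adjusted p = 0.0021). Aldh3a1, an aldehyde dehydrogenase, stood at 7.22, 7.39 and 7.61 against 5.08, 5.36 and 4.62, 5.24-fold higher (log2 change 2.39, SE 0.33, limma adjusted p = 0.00207). The conjugating enzymes Sult5a1 and Gstm5 were higher (log2 changes 1.87 and 1.58). Gstm5 has near-identical relatives whose signal its probes may share. Cbr2 (-1.05), Sult5a1 (0.67) and Gstm5 (1.30) were not called with the brightest probe set.

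Of 74 measured genes of ion transport 8 were higher and 9 lower. Among 20 chloride, sodium and proton carriers 6 were higher and none lower, with a median log2 change of 0.55. Clca2, a regulator of chloride conductance, stood at 6.06, 5.28 and 5.04 against 2.05, 2.26 and 1.81, at least 8.16-fold above the bulge (log2 change 3.41, SE 0.37, limma adjusted p = 0.000459). Slc24a3, which exchanges sodium for calcium, stood at 3.88, 4.46 and 4.20 against 1.92, 2.29 and 2.03 (log2 change 2.10, SE 0.24, limma adjusted p = 0.000567), and Ano9, of the anoctamin family, at 5.97, 6.10 and 6.02 against 4.26, 4.43 and 3.26 (log2 change 2.05, SE 0.33, limma adjusted p = 0.00609). Atp1b1, a subunit of the sodium pump, was higher (log2 change 2.32). Among 36 potassium, calcium and TRP genes 2 were higher and 6 lower. Trpv4, a cation channel that heat and swelling open, stood at 2.19, 2.26 and 2.09 against 4.86, 4.66 and 5.24 (log2 change -2.74, SE 0.15, limma adjusted p = 3.21e-06). Kcnk2, a stretch-sensitive potassium channel, stood at 1.68, 1.97 and 1.88 against 3.48, 4.40 and 4.33 (log2 change -2.22, SE 0.21, limma adjusted p = 0.000169), and Kcnma1, a calcium-activated potassium channel, at 1.59, 1.49 and 1.62 against 3.43, 3.29 and 3.95 (log2 change -1.99, SE 0.15, limma adjusted p = 3.71e-05). Piezo1, a force-gated channel, stood at 2.55, 2.56 and 2.77 against 3.18, 3.88 and 3.80 (limma adjusted p = 0.01), and the calcium channel Cacna1c was lower (log2 change -1.49). Except for Piezo1, these were under the silent level in Gata6+Itga6+ cells. Slc39a8, an importer of zinc and manganese, stood at 1.99, 2.81 and 2.89 against 5.07, 5.21 and 6.13, 7.48-fold lower (log2 change -2.90, SE 0.37, limma adjusted p = 0.00125). Of the carriers called, Atp1b1 lost the call without 4 of the 12 arrays in turn (limma adjusted p up to 0.0748, reached without Gata6+Itga6+ replicate 1), Atp1b3 without 7 of the 12 arrays in turn (limma adjusted p up to 0.142, reached without CD34+Itga6+ replicate 1) and Slc12a2 without 5 of the 12 arrays in turn (limma adjusted p up to 0.0621, reached without Gata6+Itga6+ replicate 1). With the brightest probe set Slc24a3 (0.33), Ano9 (1.06), Atp1b3 (0.78), Slc12a2 (1.27) and Cacna1c (-0.64) were not called and Trpv4 changed sign (0.82); 1 of its 18 probe sets was higher in Gata6+Itga6+ cells. For the ion transport list, the higher count of 8 became 3 without Gata6+Itga6+ replicate 1 or 3 or CD34+Itga6+ replicate 1 or 2. Atp1b3 was not called with the array-name letter as a block (limma adjusted p = 0.0848).

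**Figure D4:**
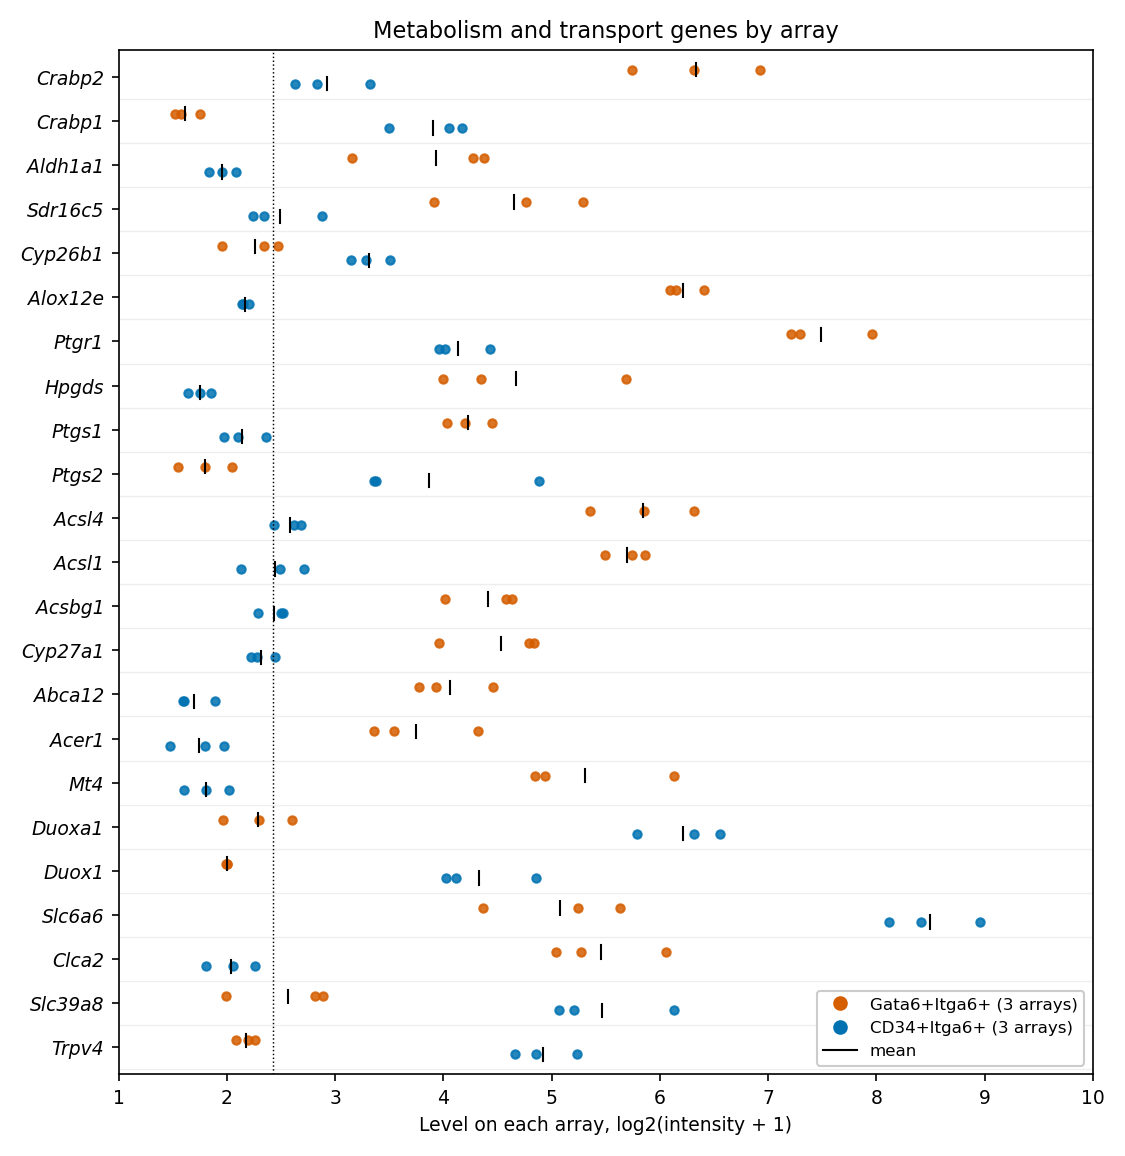
Level of 23 genes of metabolism and transport on each array, as log2(intensity + 1), with 3 Gata6+Itga6+ arrays (orange), 3 CD34+Itga6+ arrays (blue) and their means (bars); the dotted line is the silent level of 2.43. Crabp2 and Crabp1, and Ptgs1 and Ptgs2, lie on opposite sides in the 2 populations.

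Matrix genes were the list with the most called lower, 20 of 98 measured against 3 higher, with a median log2 change of -0.11. Collagens made up 7 of the 20. Col12a1, a fibril-associated collagen, was under the silent level in Gata6+Itga6+ cells, at 1.95, 2.18 and 1.94 against 6.27, 6.02 and 6.83 (log2 change -4.35, SE 0.20, limma adjusted p = 7.14e-07). Col6a1 and Col6a2, chains of the same beaded collagen, were both lower, Col6a1 at 1.92, 1.88 and 1.99 against 5.17, 5.08 and 5.55 (log2 change -3.34, SE 0.14, limma adjusted p = 4.44e-07) and Col6a2 with a log2 change of -2.17. Egfl6 and Npnt, basement membrane proteins that bulge cells deposit to guide nerves and the arrector pili muscle, were both lower. Egfl6 stood at 4.13, 3.42 and 4.50 against 7.16, 7.72 and 7.46 (log2 change -3.43, SE 0.37, limma adjusted p = 0.000405) and Npnt at 2.60, 2.80 and 2.69 against 4.48, 4.98 and 5.34 (log2 change -2.24, SE 0.28, limma adjusted p = 0.00107). Has2, a hyaluronan synthase, was under the silent level in Gata6+Itga6+ cells, at 1.49, 1.91 and 2.21 against 4.90, 4.62 and 5.77 (log2 change -3.23, SE 0.26, limma adjusted p = 5.47e-05). Postn, periostin, remained bright in both, at 6.53, 7.14 and 7.29 against 9.53, 9.51 and 9.43 (log2 change -2.50, SE 0.32, limma adjusted p = 0.00124), and Tnc, tenascin C, was lower (log2 change -2.37). Itgb6, an integrin subunit that activates TGF-beta, stood at 1.60, 1.52 and 1.54 against 3.47, 3.46 and 4.97. In the opposite direction, Abi3bp, a secreted matrix protein, stood at 6.30, 6.67 and 6.91 against 2.50, 2.61 and 2.99, 15.2-fold higher (log2 change 3.93, SE 0.19, limma adjusted p = 1.07e-06). Smoc2, a matricellular relative of Sparc, stood at 4.51, 4.56 and 4.64 against 2.51, 2.55 and 3.05 (log2 change 1.87, SE 0.28, limma adjusted p = 0.00377). Of 10 fibroblast markers Col1a2 and Fbln1 were lower, with sums of 27.5 to 30.5 against 41.3 to 62.4, while Col3a1, Dcn, Lum, Pdgfra and Dpt were under the silent level in both. The part of fibroblasts was not tested. Col1a2 lost the call without Gata6+Itga6+ replicate 3 (limma adjusted p up to 0.053). Col12a1 (-0.47), Col6a2 (-0.61), Egfl6 (-2.42), Col1a2 (-0.22), Postn (-1.79), Tnc (-1.27) and Itgb6 (0.062, a change of sign) were not called with the brightest probe set. The same held for Col7a1 (-0.51), Col18a1 (-0.37), Col5a2 (0.13, a change of sign) and Thbs1 (-0.84), also among the genes called lower. Of the 7 collagens, Col6a1 alone kept the call with it.

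Desmosomes rivet keratinocytes together, and their genes were called higher where any were called. Of 18 desmosome genes 6 were higher and none lower, with a median log2 change of 0.49. Of 81 junction genes in all 9 were higher and 2 lower, the latter near the 2.18% of all genes. The widest desmosome gaps were those of Dsc1, Dsg1a and Pkp1 (log2 changes 4.02, 3.55 and 2.54). Dsg1a is also on the spinous and granular marker list, and the part of such cells was not tested. Jup was also higher (log2 change 0.855). Its call was lost without 9 of the 12 arrays in turn (limma adjusted p up to 0.151), with the brightest probe set (0.62) and with the array-name letter as a block. Pkp4, a plakophilin relative, stood at 4.04, 4.58 and 4.48 against 2.40, 2.38 and 3.19 (log2 change 1.71, SE 0.29, limma adjusted p = 0.00737), and Dsg2, a desmosomal cadherin of basal cells, at 4.30, 3.57 and 4.48 against 2.23, 2.40 and 2.75. Marveld2, tricellulin of the junctions where 3 cells meet, stood at 4.23, 4.27 and 4.35 against 2.21, 2.28 and 2.22, under the silent level in the bulge (log2 change 2.04, SE 0.14, limma adjusted p = 1.08e-05). The adhesion molecules Bcam and Cadm1 were lower (log2 changes -1.73 and -1.50). Among 30 actin and contractility genes 4 were lower and none higher. Cald1, caldesmon, stood at 3.87, 2.53 and 2.64 against 5.30, 5.01 and 5.79 (log2 change -2.35, SE 0.32, limma adjusted p = 0.00177), and Tpm1, a tropomyosin, at 3.62, 3.46 and 3.14 against 5.09, 4.87 and 5.38 (log2 change -1.70, SE 0.25, limma adjusted p = 0.00267). Of the keratins, Krt77, a partner of suprabasal keratins known from sweat ducts and epidermis, stood at 8.38, 8.40 and 8.22 against 5.48, 4.89 and 4.73, 9.86-fold higher (log2 change 3.30, SE 0.24, limma adjusted p = 2.36e-05). Krt6a, a keratin of the companion layer and of the inner bulge, stood at 3.47, 2.58 and 2.09 against 6.07, 6.53 and 7.22 (log2 change -3.89, SE 0.40, limma adjusted p = 0.000286). Krt75, another companion layer keratin, was near the silent level in the bulge and under it in Gata6+Itga6+ cells (log2 change -0.58). Of 14 markers of the inner root sheath, shaft and companion layer 9 were under the silent level in both, among them Krt25, Krt27, Krt71 and Krt35, and the sums were 41.3 to 50.8 against 116.6 to 188.4. Dsg2 lost the call without Gata6+Itga6+ replicate 3 (limma adjusted p up to 0.0524) and Cadm1 without 4 of the 12 arrays in turn (limma adjusted p up to 0.0737, reached without Gata6+Itga6+ replicate 2). Pkp4 (1.26), Bcam (-0.72), Cadm1 (-1.02) and Cald1 (-1.46) were not called with the brightest probe set. For the junction list, the lower count of 2 became 1 without Gata6+Itga6+ replicate 1 or 2 or CD34+Itga6+ replicate 1 or 3.

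Proteases and their inhibitors gave 9 higher and 11 lower of 106 measured. Mme, neprilysin, a membrane peptidase that cleaves peptide hormones, was under the silent level in Gata6+Itga6+ cells, at 2.03, 1.49 and 1.55 against 5.39, 5.38 and 6.44 (log2 change -4.05, SE 0.26, limma adjusted p = 8.3e-06). Prss23, a secreted serine protease, stood at 3.90, 4.41 and 4.23 against 7.03, 7.41 and 7.14, 8.07-fold lower (log2 change -3.01, SE 0.37, limma adjusted p = 0.00104). The inhibitors Wfdc3 and Serpinb11 were lower too. Wfdc3 stood at 2.77, 2.70 and 2.26 against 5.67, 5.93 and 6.91 (log2 change -3.59, SE 0.30, limma adjusted p = 6.49e-05) and Serpinb11 at 2.43, 1.71 and 2.38 against 4.70, 5.59 and 5.13 (log2 change -2.97, SE 0.25, limma adjusted p = 7.07e-05). In the other direction Anpep, aminopeptidase N, stood at 7.25, 6.17 and 6.67 against 4.74, 3.87 and 4.81, 4.67-fold higher (log2 change 2.22, SE 0.36, limma adjusted p = 0.00586). Htra1, a serine protease that cleaves matrix proteins, stood at 5.45, 5.44 and 5.59 against 3.33, 3.68 and 3.25 (log2 change 2.07, SE 0.31, limma adjusted p = 0.00315). Spink5, the inhibitor of epidermal kallikreins that is lost in Netherton syndrome, stood at 6.37, 6.30 and 5.83 against 4.29, 4.19 and 4.63 (log2 change 1.80, SE 0.23, limma adjusted p = 0.00137). Serpinb11 (-1.96) was not called with the brightest probe set. For the protease list, the higher count of 9 became 4 to 5 without Gata6+Itga6+ replicate 2 or CD34+Itga6+ replicate 1 or 3.

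Genes of the cornified envelope and of surface defence were called mostly higher, 13 of 82 against 3 lower, S100a4, Tgm5 and Calml3. Sprr1a, a precursor of the envelope, stood at 7.92, 7.08 and 6.44 against 2.26, 2.94 and 2.66, 23.1-fold above the bulge (log2 change 4.53, SE 0.50, limma adjusted p = 0.000471). Calm4, a calcium-binding protein of differentiating epidermis, stood at 7.69, 7.29 and 7.08 against 4.27, 3.24 and 3.48 (log2 change 3.69, SE 0.41, limma adjusted p = 0.000519), and Krtdap, a secreted protein of the same layers, at 7.82, 7.40 and 7.45 against 4.82, 4.56 and 3.17 (log2 change 3.38, SE 0.35, limma adjusted p = 0.000338). Defb1, a beta-defensin, stood at 4.42, 3.63 and 4.95 against 1.60, 2.77 and 1.86 (log2 change 2.26, SE 0.38, limma adjusted p = 0.00713). Ly6g6c, a surface protein of the Ly6 family, was at 9.43, 9.06 and 8.72 against 5.80, 5.63 and 4.51 (log2 change 3.76, SE 0.32, limma adjusted p = 7.79e-05). Ly6e, of the same family, stood at 7.58, 7.54 and 7.67 against 2.09, 4.31 and 2.81, where CD34+Itga6+ replicate 2 lay above the other bulge arrays; its log2 change of 4.53 became 5.15 without that array. Tgm5 and Calml3, both tied to envelope formation as a crosslinking enzyme and a calmodulin-like protein, were in the lower group. Tgm5 stood at 2.72, 2.75 and 3.07 against 7.76, 7.67 and 7.68, 29.0-fold lower (log2 change -4.86, SE 0.17, limma adjusted p = 1.91e-07), with the bulge arrays within 0.1 of each other. Calml3 stood at 5.41, 5.05 and 4.92 against 6.98, 7.02 and 7.04 (log2 change -1.89, SE 0.15, limma adjusted p = 4.96e-05).

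None of 26 interferon-response genes was called, where 4.59% of all genes were. Of 13 antigen presentation genes 4 were higher, against 2.4% of all genes. Psmb8, a subunit of the immunoproteasome, stood at 5.94, 4.77 and 5.11 against 2.50, 2.69 and 3.75 (log2 change 2.30, SE 0.37, limma adjusted p = 0.00586). Psmb9, another subunit, and the class I molecule H2-D1, whose probes may read its relatives, were also higher (log2 changes 2.05 and 1.79). Cd55, which protects cells from complement, stood at 4.85, 5.62 and 5.06 against 1.93, 2.11 and 2.03, under the silent level in the bulge (log2 change 3.15, SE 0.25, limma adjusted p = 4.34e-05). Psmb9 lost the call without Gata6+Itga6+ replicate 1 or 3 or CD34+Itga6+ replicate 1 (limma adjusted p up to 0.057) and H2-D1 without 9 of the 12 arrays in turn (limma adjusted p up to 0.154, reached without Gata6+Itga6+ replicate 1). Cd55 (0.35) was not called with the brightest probe set. For the interferon and antigen list, the higher count of 7 became 2 to 4 without Gata6+Itga6+ replicate 1 or 3 or CD34+Itga6+ replicate 1 or 2. H2-D1 was not called with the array-name letter as a block (limma adjusted p = 0.06).

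Cell cycle genes were the list with the largest share called higher, 22 of 73 with none lower and a median log2 change of 0.56. The 22 included 1 of 24 growth arrest genes, Cdkn1a. Its log2 change of 4.40 was above those of the mitosis genes Top2a (3.51) and Mki67 (2.88). Among 16 replication genes Mcm6, a subunit of the DNA helicase, stood at 5.01, 4.97 and 5.39 against 3.03, 3.18 and 3.48, 3.71-fold above the bulge (log2 change 1.89, SE 0.24, limma adjusted p = 0.00124), and Mcm3 at 3.73, 3.76 and 4.83 against 2.04, 2.48 and 2.49 (log2 change 1.77, SE 0.29, limma adjusted p = 0.00627). Anln, which organizes the cleavage furrow, stood at 4.02, 3.61 and 3.66 against 1.76, 1.96 and 1.64, under the silent level in the bulge (log2 change 1.98, SE 0.19, limma adjusted p = 0.000187). Of 60 chromatin regulators 5 were higher and 1 lower, the latter near the 2.18% of all genes. Ezh2, which methylates histone H3 to silence genes, was 3.26-fold higher (log2 change 1.70, SE 0.31, limma adjusted p = 0.0117), and Chd7, a chromatin remodeller, was also higher (log2 change 1.52). Ezh2 lost the call without Gata6+Itga6+ replicate 3 (limma adjusted p up to 0.0508) and Chd7 without 4 of the 12 arrays in turn (limma adjusted p up to 0.0596, reached without Gata6+Itga6+ replicate 3). Mcm6 (0.99) and Chd7 (0.88) were not called with the brightest probe set. Nor were Bub1b, Mcm4, Mcm5, Gins2, Kif23 and Nusap1. Aurkb (-0.28), Ttk (-0.021), Pole (-0.21), Kif20a (-0.20) and Aspm (-0.29) changed sign with it and were not called. The other cell cycle genes called higher kept the call with it. Aurkb, Mcm4, Mcm5, Gins2, Pole, Kif20a and Kif23 also lost the call without at least 1 of the 12 arrays. Gins2 also lost it with the array-name letter as a block. For the cell cycle list, the higher count of 22 became 13 without CD34+Itga6+ replicate 1. For the chromatin list, the higher count of 5 became 0 to 3 without Gata6+Itga6+ replicate 2 or 3 or CD34+Itga6+ replicate 1 or 2 and the lower count of 1 became 0 without each of 8 of the 12 arrays.

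**Figure D5:**
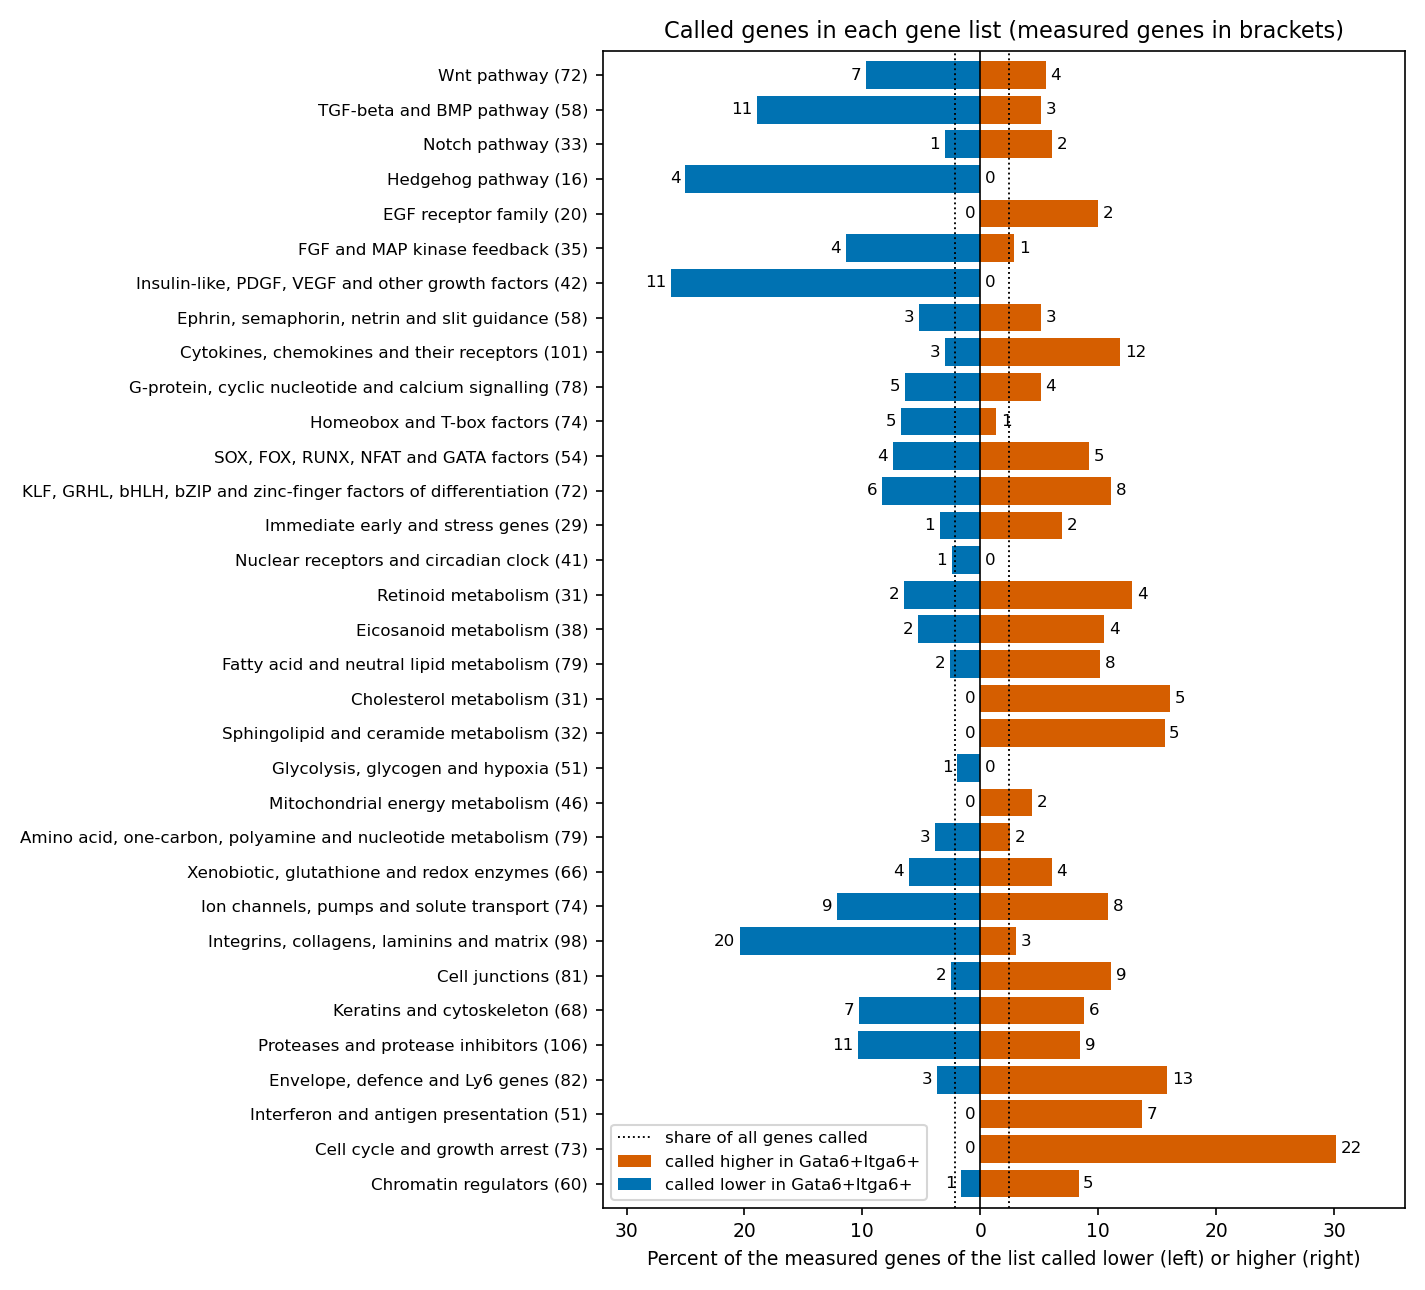
Percent of the measured genes of 33 lists that were called higher (orange, right) or lower (blue, left) in Gata6+Itga6+ cells, with the number called beside each bar and the number measured in brackets; dotted lines mark the shares of all genes, 2.4% and 2.18%. Cell cycle genes reach furthest to the right with 22 called, and insulin-like and other growth factors (11) and Hedgehog genes (4) furthest to the left.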

How the data were processed

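Expression was measured on exon arrays in sorted epidermal cells, 3 samples per population. The deposited intensities of 235932 exon probe sets were made by the authors with robust multi-array averaging (RMA) in Affymetrix Power Tools on mouse build mm9, per the submitters' processing notes, with versions not given in the sources used here. Their scale is not stated and was read as linear from the values (array medians 3.97 to 4.57, maxima 2172 to 2953), so every log2 level rests on that reading. RMA scales arrays to each other and reduces shifts shared by most genes. The number of arrays limits the precision.

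Only the 221205 probe sets with 1 gene symbol were used (1684 had several, 13043 none). Of the symbols, 15377 were current in RefSeq GRCm38.p6, 2489 were updated and 42 kept. Values became log2(intensity + 1), and the median over a gene's probe sets (typically 10, the median number, but 1 in 959 genes) was its level. The added 1 understates folds of dim genes. The populations were compared in limma 3.58.1 (R 4.3.3), in a model that gave each population its own mean and used all 12 arrays to estimate the spread (prior degrees of freedom 2.12, residual 8), with Benjamini-Hochberg adjustment over 17853 genes. It was also run on simulated data with independent noise and planted changes. These held no effect of the array-name letter and no disagreement between probe sets, so they say nothing about those. Tables used Python 3.11.15 and pandas 2.3.3.

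The members, gene lists and rules were chosen with earlier results of these data known. A rule marked genes to look at: the sort genes, the 3 largest called changes in each direction of each list and the 15 largest over all genes. Some of these are not given above, such as Il31ra and Angptl7, while genes of the same lists with smaller changes are. Other genes were picked with their values in view. The alternatives were another pseudocount, filters on dim genes, other summaries of probe sets, other normalizations, other fits and leaving out each array. Replicates with the same number deviated from their population means with correlations of -0.04, -0.07 and 0.09, so the numbers were not taken to pair samples. The letter in the array names, whose meaning is not stated, was tried as a block.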

Additional observations from a re-analysis of the deposited data

How the results depend on the processing

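The number of genes called, 819 in the main analysis (429 higher, 390 lower), depended most on how probe sets were combined. With their mean 1300 were called (682 higher, 618 lower), and with the brightest probe set 503 (304 higher, 199 lower). With only the 6 arrays compared, 331 were higher and 241 lower. Leaving out each of the 12 arrays in turn gave 251 to 483 higher and 278 to 391 lower genes. The lowest count of higher genes came without CD34+Itga6+ replicate 1. With the replicate number as a block, 420 were higher and 381 lower, and with the letter in the array names as a block 405 and 362. Of 303 called list members and named genes, 24 lost the call with the number and 38 with the letter as a block. Other settings left each count within 1.5 times the main one.

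Of 151 called genes covered by the naming rule, 72 kept direction and call under every alternative, 55 lost the call with the brightest probe set and 27 with only the 6 arrays. With the brightest probe set 8 changed sign, none of them called: Tgfb2 (-0.10), Adam10 (-0.057), Gli1 (0.38), Tbx1 (0.21), Cited2 (0.22), Crabp1 (0.33), Mthfd1l (0.30) and Trpv4 (0.82). The cause was not tested. Genes near the level of silent genes have the least room to be measured as lower.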
